A study of Mus musculus with 16 samples.

Results

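Risperidone was compared with control treatment in the striatum of A/J mice, over the 4 arrays labelled as treated A/J mice and the 4 labelled as untreated A/J mice. These are 8 of the 16 arrays of the study, and were chosen by their strain and treatment labels. The mice were males of the inbred substrain A/JOlaHsd, 7 to 8 weeks old. The treated group received intraperitoneal risperidone at 1 mg/kg once daily for 3 days. Control mice are labelled untreated, while the protocol given for every sample names saline injections. The other 8 arrays come from DBA/2JRccHsd males of the same age and treatments, 4 per group, and are used where they bear on the A/J comparison. The labels call the arrays of a group biological replicates and do not say whether RNA of several mice was pooled on an array. The time between the last injection and dissection was not given in the sources used here. Each array measured 45037 probe sets after array controls were left out, and these probe sets cover 17097 genes when those shared by several genes are set aside. Values are log2 expression levels, on which a difference of 1 is a doubling.

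Risperidone, an antipsychotic, acts as an antagonist at the D2 dopamine receptor and the 5-HT2A serotonin receptor, and also binds adrenergic and histamine receptors. In the striatum, D2 receptors sit on the projection neurons of the indirect pathway, where they lower cyclic AMP, while D1 receptors on the direct pathway raise it. Neurons that fire, or that receive growth factor or cyclic AMP signals, switch on early genes within minutes, among them the AP-1 subunits Fos and Jun, the Egr zinc finger factors and the synaptic gene Arc. Their transcripts are short-lived, so their level reflects the recent past. Another set of genes, including Fkbp5, is switched on by the glucocorticoid receptor when stress hormone is high.

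The strain labels were checked first, on 49 strain marker probe sets that differed by at least 1.5 on the log2 scale between A/J and DBA/2J control mice. Each marker's unlogged value was placed between the 2 control means, with 0% at A/J and 100% at DBA/2J. In the A/J risperidone group the median position over the markers was 27.9%, 36.2%, 0.584% and 39.1% for replicates 1 to 4. Replicates 1, 2 and 4 therefore stood apart, and only replicate 3 sat at the A/J level. The A/J control arrays lay between -2.30% and 0.944%, and the DBA/2J arrays between 87.6% and 103.2%, control arrays being placed against markers and means made without them.

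The intermediate position held for markers of either direction. In replicates 1, 2 and 4 the median was 28.9%, 37.2% and 41.7% over the 26 markers higher in DBA/2J, and 23.6%, 32.2% and 33.3% over the 23 markers higher in A/J. Over markers higher in DBA/2J the A/J control arrays lay between -1.97% and 0.601%. Over those higher in A/J, control replicates 1 to 4 were at 0.197%, -3.605%, 16.25% and 5.289%. Control replicate 3 thus came near treated replicate 1 on the markers higher in A/J. Of the 49 markers, 41, 45 and 45 lay between 15% and 60% in treated replicates 1, 2 and 4, against 7 in treated replicate 3. Only 22 of the 49 probe sets name 1 gene, and these cover 15 genes, so the markers are not independent. Pisd-ps3, a pseudogene copy of the phosphatidylserine decarboxylase gene, had log2 levels of 6.97, 7.18, 6.95 and 6.74 in the A/J control arrays and 8.37, 8.55, 6.88 and 8.63 in risperidone replicates 1 to 4. In the DBA/2J control arrays it was at 9.52, 9.45, 9.42 and 9.55. Its treated values were thus above the whole control range in 3 arrays and within it in replicate 3. Gas5, a host gene of small nucleolar RNAs, is an example of the other direction. It was at 9.61, 9.71, 9.72 and 9.68 in A/J control mice, at 9.24, 9.29, 9.67 and 9.40 in the treated replicates 1 to 4, and at 7.31 to 7.74 in DBA/2J control mice. Replicate 3 again lay within the A/J control range and the other 3 below it. Markers named here by genes such as Pisd, Pisd-ps3 and Sfi1 have near-identical copies, so the array may read several of them together.

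**Figure D1:**
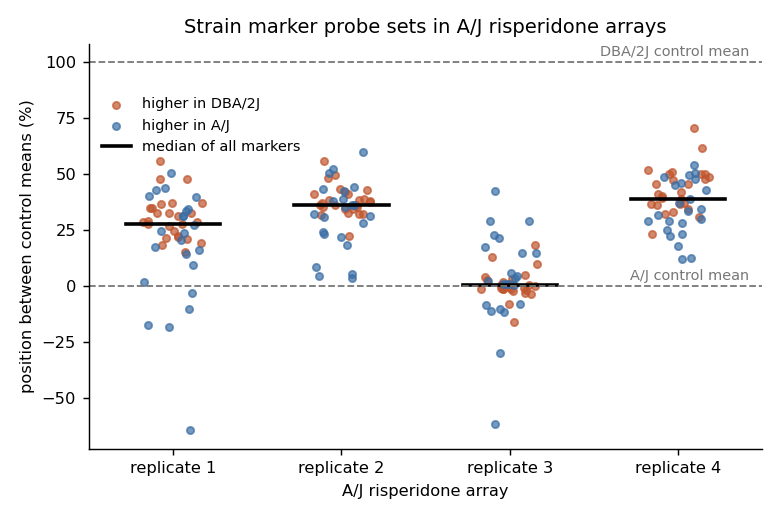
Position of each of the 49 strain marker probe sets in the 4 A/J risperidone arrays, in percent of the distance from the A/J control mean (0) to the DBA/2J control mean (100), unlogged; orange points are markers higher in DBA/2J, blue points markers higher in A/J, black bars the median. The medians are 27.9%, 36.2%, 0.584% and 39.1%, and markers of both directions are shifted in replicates 1, 2 and 4.

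Markers on single chromosomes gave a like picture except on chromosome 6. With a lower limit of 0.5 on the strain difference there were 242 markers, and 15 chromosomes held at least 5 each. The median per chromosome ran from 16.7% (chromosome 5) to 46.7% (chromosome 10) in replicate 1, from 31.1% (chromosome 13) to 52.2% (chromosome 9) in replicate 2 and from 14.6% (chromosome 6) to 47.2% (chromosome 8) in replicate 4. In replicate 3 it ran from -8.29% (chromosome 19) to 27.7% (chromosome 6). On chromosome 6, with 7 markers, replicate 3 thus lay above replicate 4.

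The treated arrays were also set against each other, since such a difference uses no control array. Over the 1745 probe sets that differed by strain in control mice (3.87% of those tested, adjusted p under 0.05, limma), the difference between replicate 1 and replicate 3 had a slope of 0.248 on the strain difference (Pearson r = 0.64 across probe sets, which are not independent). For replicates 2 and 4 the slopes were 0.305 and 0.323 (r = 0.71 and 0.72). Over the 194 of them with a strain difference of at least 1, the slopes were 0.279, 0.352 and 0.386. On the log2 scale a probe set higher in DBA/2J was thus commonly higher in replicates 1, 2 and 4 than in replicate 3, and one lower in DBA/2J commonly lower. No source used here says whether mice, tissue or RNA of the strains were mixed, and the origin of the intermediate positions was not tested. Results below are given for all 4 treated arrays and, where they rest on it, for replicate 3 alone.

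**Figure D2:**
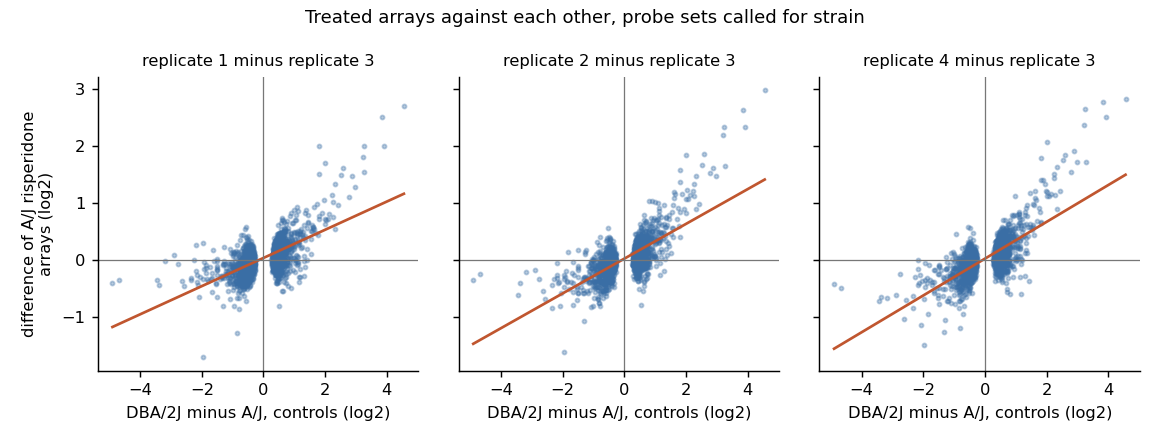
Difference of A/J risperidone replicate 1, 2 or 4 from replicate 3 (vertical, log2) against the DBA/2J minus A/J difference in control mice (horizontal, log2), for the 1745 probe sets called for strain; the line is the least squares fit. The slopes are 0.248, 0.305 and 0.323, and the axes share no array.

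The tissue label was checked against markers. In A/J control mice the mean log2 level was 7.13 for Ppp1r1b, the DARPP-32 phosphoprotein of projection neurons, and 6.92 for Penk, the enkephalin precursor of the indirect pathway, both above the array medians of 5.66 to 5.71. The probe set of Drd2, the D2 receptor, averaged 4.20 and lay below the array median. Markers of cortex were present on every A/J array, with Slc17a7, a glutamate transporter, between 9.56 and 9.98 and Tbr1, a cortical transcription factor, between 8.14 and 8.58. Ttr, a choroid plexus gene, ranged from 6.99 to 11.9 in A/J control mice and from 7.38 to 11.85 in treated ones, and Tcf7l2, a thalamic transcription factor, from 5.83 to 8.98 and from 6.69 to 7.89. The levels of these choroid plexus and thalamic genes thus varied widely among arrays of a group, in both groups.

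With limma, no gene passed an adjusted p of 0.05 in A/J (0 genes, 0% of 17097 in each direction). The smallest adjusted p of any probe set was 0.0822, and 2483 probe sets (5.51% of those tested) and 832 genes (4.87%) had an unadjusted p under 0.05. The median difference over all genes was -0.01, and 90% of genes lay between -0.20 and 0.18. By sign alone, 7809 genes were higher (45.7%) and 9206 lower (53.8%). All 4 risperidone arrays lay above all 4 control arrays in 295 genes (1.73%) and below them in 442 (2.59%). The count of genes passing was 1 with the 8 A/J arrays alone, which was Ccn1. With only the brighter probe sets kept, those above the median level, it was 7, and Ccn1, Fos, Klf2, Chchd4, Vmn2r29, Pisd-ps3 and Nlrc3 passed. With array weights it was 12. Without replicate 3 it was 17, and without replicates 1, 2 and 4 it was 1.

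Activity-regulated early genes were mostly lower in treated than in control A/J mice, without passing the test. Of 54 listed, 52 were measured: 38 were lower and 14 higher by sign, with a median difference of -0.10 against -0.01 over all genes, and none passed. Over all genes 53.8% were lower by sign. In 11 of the 52 (21.2%) every risperidone array lay below every control array, against 2.59% of all genes. In none did every risperidone array lie above. This list, its parts and the lists below were chosen with earlier results of these data known. Their shares, set beside those of all genes, are thus a description. With replicate 3 alone, the array at the A/J strain level, 39 were lower and the median was -0.20. The mean level of the list was 7.26 to 7.38 in the 4 control arrays and 7.11 to 7.20 in the risperidone arrays, with the lowest value in replicate 3. Blood markers were higher in the same treated arrays (values below), and their part in these differences was not tested.

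The 11 genes without overlap were Fos, Jun, Junb, Egr2, Klf2, Atf3, Btg2, Arc, Ccn1, Rgs4 and Hbegf. In DBA/2J mice, which share no array with A/J, the groups were apart and lower in 1.98% of all genes. This also held for 5 of the 11, Fos, Ccn1, Btg2, Arc and Egr2. Because the direction was the same in arrays of both strains, the upstream sequence of these genes is shown for the 4 that the RefSeq promoter table (GRCm38.p6) holds, as the 250 bases before a start site, 5′ to 3′ on the gene's strand. Capitals mark TGACGT, the core of the cyclic AMP response element bound by CREB, on either strand (ACGTCA on the other), and the CArG box, bound by serum response factor. In the Btg2 window TGACGT occurs on both strands within the run TGACGTCA.
Fos, chr12:85473640-85473889, plus strand: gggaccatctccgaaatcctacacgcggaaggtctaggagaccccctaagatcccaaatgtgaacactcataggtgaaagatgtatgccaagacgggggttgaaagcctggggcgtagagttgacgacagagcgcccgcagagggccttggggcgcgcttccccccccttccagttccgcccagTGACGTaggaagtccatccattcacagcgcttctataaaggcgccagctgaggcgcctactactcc
Ccn1, chr3:145649986-145650235, minus strand: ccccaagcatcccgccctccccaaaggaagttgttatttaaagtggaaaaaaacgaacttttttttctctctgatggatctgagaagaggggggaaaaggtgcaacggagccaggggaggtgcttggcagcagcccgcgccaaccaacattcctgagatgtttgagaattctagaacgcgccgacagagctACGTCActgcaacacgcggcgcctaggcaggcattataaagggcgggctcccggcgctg
Btg2, chr1:134079156-134079405, minus strand: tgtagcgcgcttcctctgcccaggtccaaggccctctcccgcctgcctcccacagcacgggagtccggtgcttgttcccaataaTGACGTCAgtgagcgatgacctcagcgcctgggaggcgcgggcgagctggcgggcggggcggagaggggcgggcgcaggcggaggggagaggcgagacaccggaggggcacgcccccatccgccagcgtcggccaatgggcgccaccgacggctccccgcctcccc
Egr2, chr10:67537619-67537868, plus strand: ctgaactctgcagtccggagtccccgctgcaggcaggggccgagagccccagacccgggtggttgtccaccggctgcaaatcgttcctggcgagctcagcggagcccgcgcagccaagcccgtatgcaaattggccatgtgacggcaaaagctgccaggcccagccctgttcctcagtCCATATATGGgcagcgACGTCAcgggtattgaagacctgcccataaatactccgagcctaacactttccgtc

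TGACGT was in 6.47% of the 32851 upstream windows of the table and the CArG box in 1.47%. Of the 11 genes, 9 have a window, and TGACGT was in at least 1 window of 5 of them (Fos, Ccn1, Btg2, Egr2 and Atf3). These 9 genes have 13 windows. Egr2 has several, and its window from 67535249 to 67535498 holds neither motif. The shares are by window and the counts by gene, so they are unlike measures, and no share by gene was made. The CArG box was in windows of 1 gene, Egr2. Counted from the start site, the motif begins at -66 in Fos, -59 in Ccn1, -8 in Atf3 and -166 in Btg2, and in the Egr2 window shown the CArG box begins at -72 and TGACGT at -56. These matches describe the letters of the windows and do not show binding.

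Of the 7 AP-1 subunits measured, 5 were lower by sign (median -0.14), or 7 with replicate 3 alone (median -0.24). In 3 (42.9%) the groups were without overlap and lower, against 2.59% of all genes. Among the 7, Fos (chromosome 12, 85473890 to 85477274) had the lowest difference. Its log2 level was 8.35, 8.38, 8.43 and 8.53 in the control arrays and 7.92, 7.88, 7.76 and 7.93 in risperidone replicates 1 to 4. The groups did not overlap, and replicate 3 was the lowest array. The difference was -0.55 ± 0.10 (SE, n = 4 per group), or 1.46-fold, with a limma adjusted p of 0.123, and -0.66 for replicate 3 alone. In DBA/2J mice Fos fell by 0.81 (adjusted p = 0.00284). This and the other DBA/2J calls come from the fit over all 16 arrays, and 0 genes passed with the 8 DBA/2J arrays alone. For Fos the difference between the strains in the drug effect had an adjusted p of 0.584. Jun, the main partner of Fos, was at 8.46, 8.57, 8.71 and 8.71 in control arrays and at 8.16, 8.23, 8.25 and 8.33 in treated ones (difference -0.37 ± 0.11, adjusted p = 0.556). Junb differed by -0.30 and Fosl2 by -0.14. Fosb went from a mean of 5.97 to 6.08, a difference of 0.11 that was -0.10 with replicate 3 alone and -0.38 in DBA/2J.

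Of the 21 other early transcription factors and regulators measured, 17 were lower and 4 higher by sign (median -0.14). In 4 (19%) the groups were without overlap and lower, against 2.59% of all genes. Btg2, an antiproliferative transcriptional co-regulator, was at 7.10, 7.28, 6.96 and 7.07 in control arrays and at 6.88, 6.60, 6.58 and 6.70 in treated replicates 1 to 4. The difference was -0.41 ± 0.10 (adjusted p = 0.366) in A/J and -0.51 in DBA/2J (adjusted p = 0.113), so it passed in neither. Another Btg2 probe set, averaging 6.62 against 6.89 for the one shown, gave -0.24 in A/J (limma adjusted p = 0.907). Egr2, a zinc finger factor, was at 8.11, 8.12, 8.40 and 8.54 in control arrays and at 8.09, 8.00, 8.08 and 8.00 in treated arrays. Its lowest control array, at 8.11, was barely above its highest treated array, at 8.09, and the difference was -0.25 ± 0.13 (adjusted p = 0.925). In DBA/2J it fell by 1.16. The strain difference in the drug effect did not pass for Egr2 (adjusted p = 0.222). The mean in control mice was 8.29 in A/J and 8.94 in DBA/2J.

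Of the other members named here, Npas4, Nr4a1, Egr1, Klf4 and Maff overlapped between the groups and Atf3 did not. Npas4, a neuronal factor induced by calcium entry, differed by -0.45 ± 0.20, with control levels from 5.09 to 6.13 and treated levels from 4.91 to 5.43. Nr4a1, an orphan nuclear receptor, differed by -0.22 in A/J and -0.66 in DBA/2J, and Egr1 by -0.16 and -0.64. Klf4, a relative of Klf2, differed by -0.47 ± 0.18 (adjusted p = 0.808) in A/J and by 0.13 in DBA/2J. Atf3, a stress-induced member of the ATF family, was at 4.72, 4.87, 4.67 and 4.76 in control arrays and 4.43, 4.06, 4.17 and 4.52 in treated ones (difference -0.46 ± 0.11, adjusted p = 0.265), all of them below the array median. Maff was the highest of the group at 0.16.

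Of the 24 early effector genes measured, 16 were lower and 8 higher by sign (median -0.04). Ccn1, which encodes a secreted matricellular protein (chromosome 3, 145646971 to 145649985), was at 6.97, 7.28, 6.96 and 6.90 in control arrays and at 6.37, 6.11, 6.18 and 6.33 in risperidone replicates 1 to 4. The lowest control array was more than 0.5 above the highest treated one. The difference was -0.78 ± 0.14 (1.72-fold, adjusted p = 0.119), and -0.85 for replicate 3 alone. Its second probe set gave -0.74 (adjusted p = 0.0822), and in DBA/2J Ccn1 fell by 0.86 (adjusted p = 0.0355). Arc, which regulates AMPA receptors at synapses, was at 9.60, 9.86, 9.70 and 10 in control arrays and at 9.40, 9.39, 9.21 and 9.52 in treated ones. Its difference was -0.41 ± 0.13 (adjusted p = 0.649) in A/J, and in DBA/2J it fell by 0.79. Dusp1, a MAP kinase phosphatase, differed by -0.26 ± 0.08 (adjusted p = 0.655), with treated replicate 1 at 9.68 and the other 3 at 9.44 to 9.45 against 9.68 to 9.80 in control arrays. Rgs4, a regulator of G protein signalling, was at 9.34 to 9.40 in treated and 9.54 to 9.74 in control arrays. Hbegf, an EGF receptor ligand, was without overlap in both strains and in opposite directions, at -0.32 in A/J and 0.33 in DBA/2J, and the difference between the strains had an adjusted p of 0.207. Inhba, Vgf and Ptgs2 were at 0.14, 0.22 and 0.17.

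**Figure D3:**
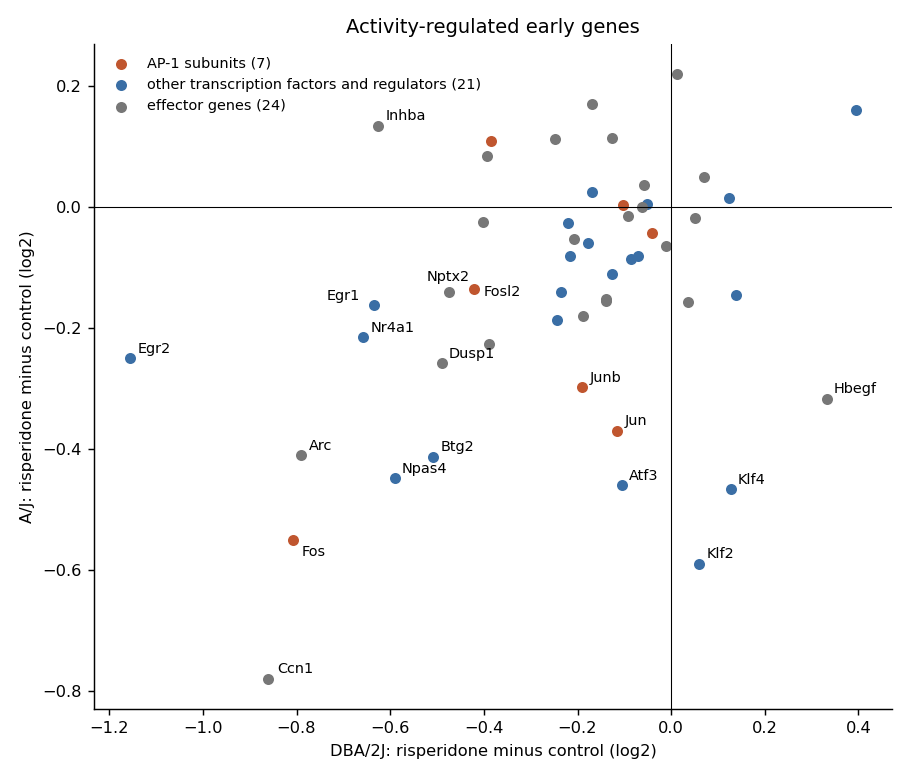
Difference of each of the 52 measured early genes after risperidone in A/J (vertical) and DBA/2J (horizontal), both log2, 4 arrays per group; colour gives the role of the gene. Of the 52 genes, 32 lie lower in both strains, with Fos, Ccn1, Arc, Btg2 and Npas4 at -0.41 or lower in each. Klf2 and Klf4 are lower in A/J alone by sign.

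Across both strains, 32 of the 52 early genes were lower in each strain by sign, 4 were higher in each, 6 were lower in A/J only and 10 in DBA/2J only. The DBA/2J median was -0.17, with 42 lower, against 47% of all genes lower and 52.6% higher in that strain. The groups of DBA/2J were apart in 398 genes higher (2.33%) and 339 lower (1.98%). Over all genes, 21 were without overlap in the same direction in both strains (0.123%), 4 higher (0.0234%) and 17 lower (0.0994%). Another 20 were so in opposite directions (0.117%), 7 of them higher in A/J (0.0409%) and 13 lower (0.076%). With replicate 3 alone as the treated A/J array the counts were 149 and 120. Leaving out 1 array at a time, which loosens the condition, gave counts of same-direction genes from 24 to 47. Among all genes the 2 directions were thus about equally common.

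The lower genes of the 21 beyond the early list had small differences that did not pass. Vgll4, a cofactor of TEAD transcription factors, was at 6.62, 6.69, 6.52 and 6.63 in A/J control arrays and at 6.30, 6.47, 6.24 and 6.38 in treated ones (-0.27 ± 0.11, adjusted p = 0.824), and at -0.37 in DBA/2J. Ybx3, a cold shock domain protein gene, differed by -0.20 in A/J and -0.32 in DBA/2J, and Fam98a by -0.23 and -0.19. Phf13, a chromatin reader gene, was at 6.86 to 6.89 in treated and 6.99 to 7.12 in control A/J arrays. AU023762 was at -0.22 in A/J and -0.46 in DBA/2J, and Fcer1a, a subunit of the IgE receptor, at -0.28 and -0.40. Both averaged below the array medians of 5.66 to 5.71, at 4.76 for AU023762 and 3.16 for Fcer1a. Cd93, Cenps, Mrps36, Srpk1 and Btg1, a relative of Btg2, were at -0.26 to -0.07 in A/J.

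Of the 4 higher genes, Fkbp5, whose protein binds and restrains the glucocorticoid receptor (chromosome 17, 28398753 to 28486149), had the largest difference. It was at 6.72, 6.47, 6.88 and 6.79 in A/J control arrays and at 7.08, 7.26, 7.14 and 7.11 in risperidone replicates 1 to 4, with no overlap. The difference was 0.43 ± 0.14 (1.35-fold, adjusted p = 0.609), and 0.43 for replicate 3 alone. In DBA/2J Fkbp5 rose by 0.81 (adjusted p = 0.0367). Sypl, Rpl14 and Adgb differed by 0.27, 0.39 and 0.23 in A/J and by 0.28, 0.23 and 0.39 in DBA/2J. Adgb averaged only 2.67 over all arrays, below the array medians of 5.66 to 5.71. Another probe set of Sypl gave -0.09 in A/J. Rpl14, a ribosomal protein gene, was at 6.30, 6.82, 6.33 and 6.73 in treated and 6.04 to 6.25 in control A/J arrays, with replicates 2 and 4 the highest. Its level in DBA/2J control mice was 7.24.

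Glucocorticoid-responsive genes were mostly higher in treated A/J mice, again without passing. Of 20 listed, 18 were measured, 14 higher and 4 lower by sign, with a median of 0.16 against -0.01 over all genes. In 4 (22.2%) every treated array lay above every control array, against 1.73% of all genes. They were Fkbp5, Hif3a, Sult1a1 and Cdkn1a. This list too was chosen with earlier results of these data known, so the share is a description. Replicate 3 alone gave a median of 0.21, and the mean level of the list was 6.77 to 6.99 in control and 7.02 to 7.11 in treated arrays. Hif3a, a hypoxia-inducible factor gene that glucocorticoids raise, was at 6.11, 6.06, 6.38 and 6.20 in control arrays and at 6.69, 6.50, 6.61 and 6.55 in treated ones (0.40 ± 0.10, adjusted p = 0.311). Sult1a1, a phenol sulfotransferase, was at 5.47 to 5.86 in control and 5.93, 6.07, 6.28 and 6.23 in treated replicates 1 to 4 (0.45 ± 0.13, adjusted p = 0.534). Plin4, a lipid droplet coat protein gene, differed by 0.47 ± 0.14, with control replicate 3 at 5.23 above treated replicate 1 at 5.17. Zbtb16 differed by 0.37 with all treated arrays and by 0.11 with replicate 3 alone. Sgk1 and Nfkbia, also on the list, were at -0.01 and -0.02. In DBA/2J the list's median was 0.18, with 16 of 18 higher. Blood markers were higher in the treated A/J arrays too, and their part was not tested.

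**Figure D4:**
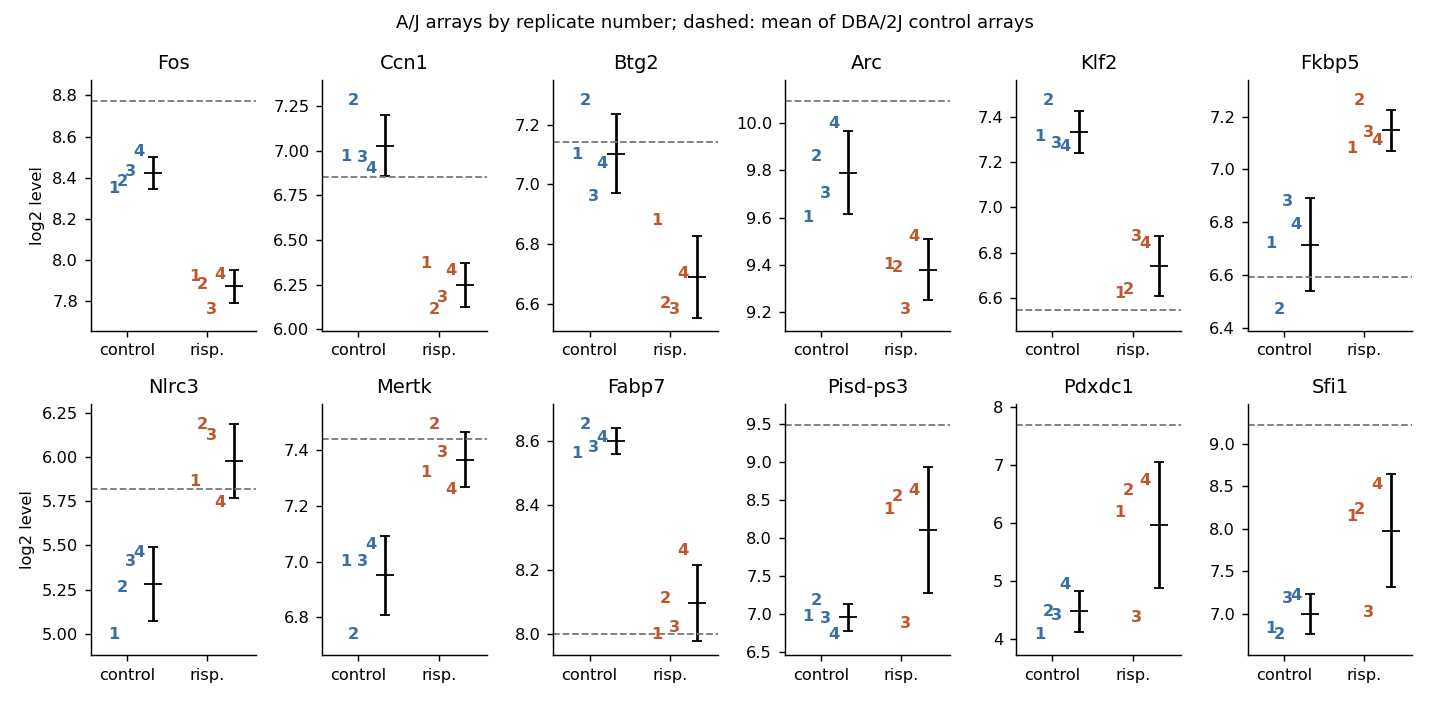
Log2 level of 12 genes in the 8 A/J arrays, each digit being the array's replicate number (blue control, orange risperidone), with mean and SD of 4 arrays beside it; the dashed line is the mean of the DBA/2J control arrays and the vertical scale differs between genes. Fos, Ccn1, Btg2, Arc, Klf2 and Fkbp5 have replicate 3 on the side of the other treated arrays, as do Nlrc3, Mertk and Fabp7, while in Pisd-ps3, Pdxdc1 and Sfi1 it lies with the control arrays.

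The 12 higher and 12 lower genes with the smallest p in A/J were then described by the place of replicate 3. Their adjusted p ran from 0.0822 to 0.330, so none passed. Replicate 3 lay beyond every control array in 21 of the 24, 9 of the 12 higher and all 12 lower. Over all genes it lay above every control array in 16.6% and below in 20.1%. The 24 were chosen by a p that used replicate 3, so the count of 21 is a description and supports nothing. In 2 of the 24, Ccn1 and Fos, the DBA/2J groups were also apart in the same direction (over all genes, 2.33% higher and 1.98% lower). Several of the 24 differed between the strains in control mice. That comparison uses the same A/J control arrays, so the values are only set side by side.

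Klf2, a Krüppel-like transcription factor of endothelial and immune cells (chromosome 8, 72319062 to 72321654), had the smallest p by the probe set shown for each gene. It was at 7.31, 7.47, 7.28 and 7.27 in control arrays and at 6.62, 6.64, 6.87 and 6.84 in risperidone replicates 1 to 4. Replicate 3 was the highest treated array and still below every control array. The difference was -0.59 ± 0.10 (1.5-fold, adjusted p = 0.0822) with 4 treated arrays and -0.46 with replicate 3 alone. DBA/2J mice were at 6.55 in controls, with a drug difference of 0.06. Without replicate 3 Klf2 had an adjusted p of 0.0195.

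Nlrc3, an inhibitory NOD-like receptor gene, was at 5.0, 5.26, 5.41 and 5.46 in control arrays and at 5.86, 6.18, 6.12 and 5.74 in treated replicates 1 to 4 (0.69 ± 0.12, adjusted p = 0.0871). Replicate 3 was shifted by 0.84, more than the mean of the other 3 at 0.64, and the DBA/2J control level was 5.82. Its second probe set, at a low level, gave -0.03. Mertk, a receptor tyrosine kinase for the uptake of dead cells, was at 6.74 to 7.06 in control and at 7.32, 7.49, 7.39 and 7.26 in treated arrays (0.42 ± 0.09, adjusted p = 0.237). Its difference was 0.44 for replicate 3 and 0.41 for the mean of the other 3. Fabp7, the brain fatty acid binding protein of astrocytes and progenitors, was at 8.56, 8.65, 8.58 and 8.61 in control arrays and at 8.00, 8.11, 8.02 and 8.26 in treated ones (-0.50 ± 0.11, adjusted p = 0.257). The DBA/2J control level of Fabp7 was 8.00, and the drug difference there 0.09. Apold1, an endothelial early-response gene, was at 6.93, 7.44, 7.71 and 7.11 in control arrays and at 6.61, 6.42, 6.49 and 6.63 in treated ones (-0.76 ± 0.17, adjusted p = 0.257). Its values in DBA/2J mice were 6.24 in controls with a drug difference of -0.20. In these genes replicate 3 and the arrays with intermediate strain markers lay on the same side of the control arrays.

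The other genes of the 24 with replicate 3 beyond the controls were Vmn2r29 (0.56), C730049O14Rik (0.42), Tyms (0.38), 4933439C10Rik (0.51), 4931430N09Rik (0.52), Chchd4 (0.56) and Stab2 (1.5) on the higher side. On the lower side they were Fhdc1 (-0.35), Abhd1 (-0.36), Ing3 (-0.38), Tusc1 (-0.40), Actl6a (-0.42) and Prr16 (-0.45). Chchd4, a mitochondrial import oxidoreductase gene, differed by 0.36 in replicate 3 and by 0.63 in the mean of the other 3, with DBA/2J control mice at 8.27 against 7.29 in A/J. Stab2, a scavenger receptor gene, was at 4.08, 4.25, 4.94 and 5.30 in control arrays and at 6.31, 6.34, 5.35 and 6.56 in treated replicates 1 to 4, so replicate 3, at 5.35, lay just above the highest control array. The DBA/2J control level of Stab2 was 7.08, and its probe set is among the 49 strain markers. Ing3, a subunit of a histone acetyltransferase complex, and Tyms, thymidylate synthase, had further probe sets with smaller differences, from -0.17 to 0.22 for Ing3 and from -0.06 to 0.13 for Tyms.

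In the 3 remaining genes, Pisd-ps3, Pdxdc1 and Sfi1, replicate 3 lay within the control range. Pdxdc1, a pyridoxal-dependent decarboxylase domain gene (chromosome 16, 13833145 to 13903176), was at 4.08, 4.46, 4.40 and 4.94 in control arrays and at 6.17, 6.55, 4.36 and 6.73 in treated replicates 1 to 4. The difference was 1.48 ± 0.34 (adjusted p = 0.257) over all 4 arrays, 2.01 over replicates 1, 2 and 4, and -0.11 for replicate 3 alone. DBA/2J control mice were at 7.68, and the drug difference there was 0.06. Another probe set of Pdxdc1, one that is lower in DBA/2J, gave -0.32. Sfi1, a centrosomal spindle protein gene (chromosome 11, 3131850 to 3203347), was at 6.76 to 7.21 in control arrays and at 8.15, 8.23, 7.01 and 8.52 in treated ones, with DBA/2J control mice at 9.22. Pisd-ps3, whose levels stand above, differed by 1.15 ± 0.25 (adjusted p = 0.257) over 4 arrays and by -0.08 in replicate 3, and its 2 other probe sets gave 2.21 and 1.58 (adjusted p = 0.0822 for each). In these 3 genes the A/J difference was carried by the arrays with intermediate strain markers. With the DBA/2J share of each array as a covariate, Fos was at -0.64, Ccn1 at -0.91, Klf2 at -0.45, Fkbp5 at 0.39 and Nlrc3 at 0.80, and none of the 5 passed. The probe sets shown for Pdxdc1, Pisd-ps3, Sfi1 and Stab2 are among the 49 markers that give the share, so this fit is no check of them.

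Leaving out replicate 3, so that only arrays with intermediate markers stood for treatment, gave 17 genes, 16 higher and 1 lower. Klf2 was the lower one. Pisd-ps3, Pdxdc1, Sfi1, Stab2 and Chchd4 were among the higher ones, with differences of 2.78 (another probe set), 2.01, 1.03 (another probe set), 1.76 and 0.63. Neither Fos nor Ccn1 was among the 17. With replicate 3 as the only treated array, and the spread taken from the other groups, 1 gene passed. This was 4930519G04Rik at 1.38 (adjusted p = 0.00723), whose difference over all 4 arrays was 0.06, and which is named after its values were seen.

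The receptors that risperidone binds, and the dopamine signalling genes downstream, were close to their control level. Of 14 receptors listed 9 were measured, 3 higher and 6 lower by sign (median -0.04), with no group apart. Drd2 was at 4.57, 3.80, 4.55 and 3.89 in control and at 4.16, 3.65, 4.09 and 4.07 in treated arrays (-0.21 ± 0.20, adjusted p = 0.987), and Drd1 differed by -0.16 ± 0.12 (adjusted p = 0.967). Of 15 dopamine and cyclic AMP signalling genes measured, 13 were lower by sign with a median of -0.08 (replicate 3 alone -0.01). Rasd2, a striatal small GTPase, was the lowest at -0.35, with control replicate 1 at 7.94 and the other 7 A/J arrays at 6.96 to 7.39. Of 10 neuropeptide genes 4 were higher and 6 lower (median -0.02). Penk was at 7.70, 6.69, 7.14 and 6.13 in control and 6.46, 6.70, 7.01 and 6.89 in treated arrays, a difference of -0.15 ± 0.27 that was 0.09 with replicate 3 alone and 0.11 without control replicate 1. Tac1, the substance P precursor of the direct pathway, differed by 0.27 ± 0.23.

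The mTOR pathway, which controls protein synthesis, had 35 of 43 genes measured, 17 higher and 18 lower by sign, and a median of -0.005. Mtor was at 8.52 to 8.65 in control and 8.64 to 8.68 in treated arrays (0.09 ± 0.07, adjusted p = 0.975). Mapkap1, a subunit of mTOR complex 2, was at 6.65 to 6.81 in control and at 6.43, 6.62, 6.31 and 6.49 in treated arrays (-0.28 ± 0.08, adjusted p = 0.504). Mapkap1 and Lamtor2, a lysosomal scaffold gene at -0.19, were the 2 without overlap (5.71%, against 2.59% of all genes). Of 21 sterol and lipid synthesis genes 15 were lower (median -0.04), and 4 (19%) were without overlap and lower, against 2.59% of all genes. They were Hmgcs1, Mvd, Idi1 and Cyp51, enzymes of the mevalonate and cholesterol pathway. Hmgcs1 was at 4.83 to 5.01 in control and at 4.65, 4.47, 4.44 and 4.52 in treated arrays (-0.39 ± 0.12, adjusted p = 0.566), and Mvd at 6.43 to 6.59 and 6.20 to 6.34 (-0.25 ± 0.10, adjusted p = 0.808). Idi1 and Cyp51 differed by -0.18 and -0.17. In DBA/2J the list's median was 0.04, with 13 of 21 higher. Heat shock genes had a median of -0.04, with 9 of 11 lower. Hspa1b at -0.29 and Hsp90aa1 at -0.13 were without overlap (18.2% of the 11, against 2.59% of all genes). Circadian clock genes had a median of 0.07 (8 of 15 higher), with Per2 the highest at 0.27.

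**Figure D5:**
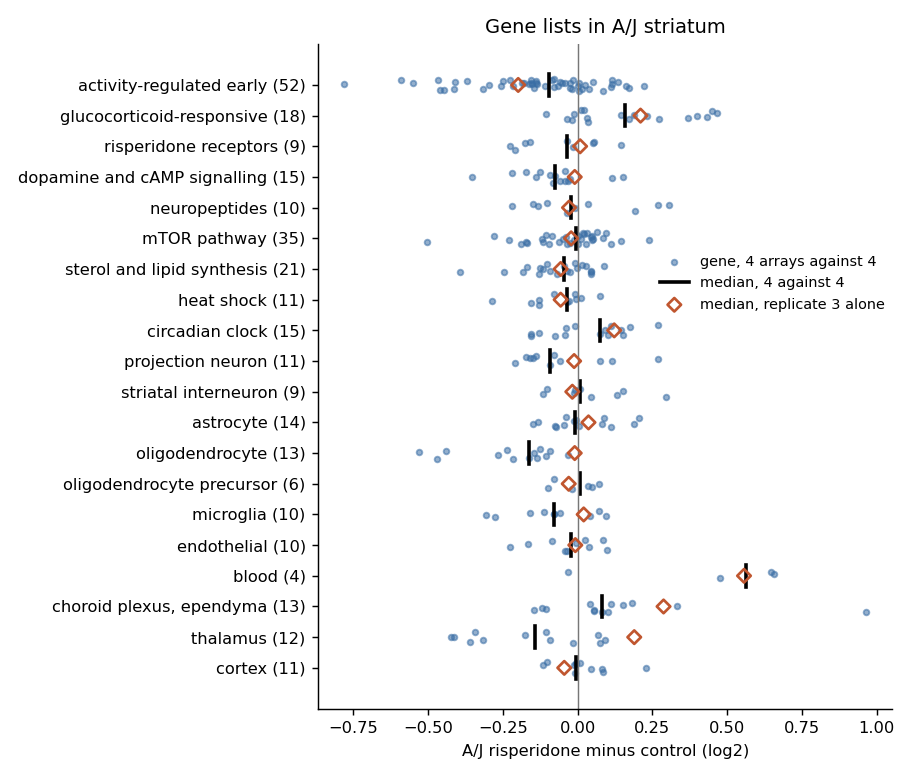
Difference between A/J risperidone and control mice (log2) for the genes of 20 lists, with the number measured in brackets; blue points are genes over 4 against 4 arrays, black bars their median, open diamonds the median with replicate 3 as the only treated array. Early genes (-0.10), glucocorticoid-responsive genes (0.16) and blood markers (0.56) have medians away from 0 that replicate 3 alone also shows, while oligodendrocyte markers (-0.16) are at -0.01 in replicate 3.

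Cell type markers were examined because bulk tissue varies in its make-up. In bulk RNA, fewer cells of a type and less RNA per cell cannot be told apart. Blood markers were higher in treated A/J mice in 3 of 4 measured, with a median of 0.56, and the mean of the list was 7.85 to 8.38 in control and 8.50 to 8.77 in treated arrays. Hbb-b2, a beta globin gene, was at 11.43, 11.18, 10.77 and 11.26 in control and at 11.97, 11.82, 11.81 and 11.66 in treated arrays (0.66 ± 0.19, adjusted p = 0.523). Alas2, the haem synthesis enzyme of red cells, differed by 0.48 and the alpha globin gene Hba-a1 by 0.65, while Slc4a1 was at -0.03. Globin genes have near-identical copies that the array may read together. Replicate 3 alone gave a median of 0.56.

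Oligodendrocyte markers were lower by sign in 13 of 13 measured, with a median of -0.16 and no pair of groups apart. Mog, a myelin glycoprotein gene, was at 7.64, 7.69, 7.93 and 7.17 in control and at 6.98, 6.85, 7.32 and 7.15 in treated arrays (-0.53 ± 0.18, adjusted p = 0.696). Mag and Ugt8a, a myelin-associated glycoprotein and a galactolipid enzyme, differed by -0.44 and -0.47. With replicate 3 alone the median was -0.01, with 7 lower and 6 higher. DBA/2J control mice were lower than A/J control mice in this list, by a median of 0.48, and the mean level of the list was highest in A/J control replicate 3 (8.45 against 7.84 to 8.12 in the other control arrays). Microglia markers had a median of -0.08, with Cx3cr1, the fractalkine receptor, at 7.62 to 7.81 in control and 7.28 to 7.54 in treated arrays (-0.30 ± 0.14, adjusted p = 0.868), and DBA/2J control mice at 6.68. P2ry12, a purinergic receptor of resting microglia, differed by -0.28, or -0.08 in replicate 3. Projection neuron markers had a median of -0.09 (8 of 11 lower), and -0.01 in replicate 3. Choroid plexus and ependyma markers were at 0.08 (replicate 3 alone 0.29) and thalamus markers at -0.14 (replicate 3 alone 0.19), with list means that overlapped between the groups. Astrocyte, interneuron, endothelial and cortex markers and those of oligodendrocyte precursors had medians between -0.02 and 0.01.

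Whether the drug effect differed between the strains was tested by the interaction. With limma no gene passed (0 genes, 0% in each direction), with a smallest adjusted p of 0.0542 over all probe sets and 4140 probe sets (9.19%) at an unadjusted p under 0.05. No A/J difference described here can therefore be called particular to A/J. In DBA/2J 11 genes passed, 2 higher (0.0117%) and 9 lower (0.0526%). The count was 0 with the 8 DBA/2J arrays alone, 1 without probe sets called for strain, and 2 to 27 leaving out 1 array, the lowest without DBA/2J control replicate 2 or risperidone replicate 1 and the highest without risperidone replicate 2. The 2 higher were Fkbp5 and Hif3a, and the lower included Egr2, Fos, Ccn1, Egr1, Arc and Dusp1, all 6 of the early list. Without A/J risperidone replicate 3, 7 genes passed the interaction, and these were Pisd-ps3, Pdxdc1, Sfi1, Uqcr10, Tmem64, Ank2 and Phkg1. All 7 had a lower drug difference in DBA/2J than in A/J, and none is among the early or glucocorticoid-responsive genes. With replicate 3 as the only treated A/J array 1 gene passed, 4930519G04Rik at -1.43 (adjusted p = 0.037).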

How the data were processed

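RNA of mouse striatum was measured on 16 Affymetrix mouse expression arrays, 4 per strain and treatment. The authors deposited log2 values for each probe set, made with RMA, per the submitters' processing notes, with no version given. The 104 array control probe sets were left out and 45037 tested. Gene symbols came from GEO's platform annotation: 28898 probe sets name 1 gene, 551 several and 15588 none. Of these, 28689 matched GRCm38.p6. A gene is shown by its brightest probe set over all arrays, and counted as called if any of its probe sets had an adjusted p under 0.05. Group means were fitted over all 16 arrays with limma 3.58.1 in R 4.3.3, with Benjamini-Hochberg adjustment over all probe sets; every adjusted p is from such a fit, and the code was tested on simulated data. The DBA/2J share was read from markers with a strain difference of at least 1.5, a level of at least 7 and an adjusted p under 0.01, after unlogging. Genes were named by smallest p (12 per direction, 1 probe set each), by fixed lists and by lack of overlap in both strains. The members and lists were chosen with earlier results of these data known. Same-numbered arrays were not paired by any label, and their deviations correlated at over 0.1 for 1 of 4 numbers. Nothing says the arrays hold separate mice, so p-values measure the spread between arrays, and the number of arrays limits the precision.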

Additional observations from a re-analysis of the deposited data

Results flagged for a closer look

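In 10 of 188 groups of 4 A/J arrays examined, 1 array stood far from the other 3, with a gap to the nearest of them divided by the group's range above Dixon's critical value for 4. Chance flags about 1 in 20 such groups. In treated mice, Pisd-ps3 had replicate 3 at 6.88 and the others at 8.37 to 8.63 (0.851), and Vmn2r29, a vomeronasal receptor gene, had replicate 1 at 6.04 and the others at 6.34 to 6.40 (0.833). Fam98a had replicate 1 highest in both groups, at 7.49 against 7.29 to 7.32 in control mice (0.85) and at 7.24 against 7.07 to 7.09 in treated mice (0.882). Dusp1 had control replicate 2 at 9.68 below 9.78 to 9.80 (0.833) and treated replicate 1 at 9.68 above 9.44 to 9.45 (0.958). Rgs4 had treated replicate 3 at 9.34 and all others at 9.40 (a ratio of 1). Control replicate 3 was the highest for Angptl4, at 5.38 against 5.21 to 5.23 (0.882). It was also the highest for the mean of the heat shock list, at 9.14 against 9.02 to 9.04 (0.84), and for that of the oligodendrocyte precursor markers, at 6.70 against 6.54 to 6.57 (0.873).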

How the results depend on the processing

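The count of genes passing in A/J was 0, and became 7 with probe sets above the median level, 12 with array weights, 1 (Ccn1) with the 8 A/J arrays alone and 1 (4930519G04Rik) with risperidone replicate 3 alone. Leaving out 1 array gave 0 to 17, the highest without A/J risperidone replicate 3. In DBA/2J, where 11 passed, the count was 23 above the median level, 17 with a trended robust fit, 5 with array weights, 1 at 1.2-fold, 0 with 8 arrays alone, 3 with the DBA/2J share as a covariate, 2 with replicate 3 alone, 1 without probe sets called for strain, and 2 to 27 leaving out 1 array. The interaction gave 1 gene with replicate 3 alone and 0 to 7 leaving out 1 array. For strain in control mice it was 596 with 1 probe set per gene, 146 at 1.2-fold, 454 with control arrays alone, 584 with replicate 3 alone, 0 with the share as a covariate, which itself separates the strains, and 558 to 932 leaving out 1 array. With the replicate number as a block, 0 genes passed in A/J, 12 in DBA/2J, 0 for the interaction and 940 for strain, and the early gene median was -0.097; 1 number of 4, replicate 3, correlated best with its own.

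The early gene median was -0.199 with replicate 3 alone and -0.144 to -0.068 leaving out 1 array. Genes apart in the same direction in both strains numbered 149 with replicate 3 alone and 24 to 47 leaving out 1 array. On the log2 scale the DBA/2J shares of replicates 1, 2 and 4 were 33.87%, 45.51% and 44.51%. They were 23.59%, 32.2% and 33.3% with markers higher in A/J, and 41.65% in replicate 4 with markers higher in DBA/2J. With markers of at least 0.5, chosen after seeing the data as was the count with replicate 3 alone, the shares of replicates 1 to 4 were 32.68%, 38.57%, 4.176% and 36.67%. With strain differences of at least 1 the slopes of replicates 2 and 4 were 0.3516 and 0.3855.

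Among 69 named genes, 767 of 787 values under 12 other settings and 1097 of 1104 leaving out 1 array kept their direction and side of the threshold. The sign changed for Fosb (-0.054 with the covariate, -0.097 with replicate 3 alone), Penk (0.076, 0.095, and -0.412 to 0.112 leaving out 1 array), Pisd-ps3 (-0.08) and Pdxdc1 (-0.11), the last pair with replicate 3 alone. Fits with replicate 3 alone assume that it varies like the other groups. Where a count moved, the cause was not tested.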
